A study of Homo sapiens with 12 samples.

Results

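The D-type cyclins CCND1, CCND2 and CCND3 and their kinases CDK4 and CDK6 were followed in 2 mantle cell lymphoma lines in which cyclin D1 was silenced. The members were the table rows carrying these 5 symbols, 5 of 23617 symbols in the Granta-519 table and 5 of 23615 in the JeKo-1 table, with 1 row each. The libraries form 4 groups of 3: Granta-519 infected with lentivirus carrying an shRNA to cyclin D1 (shCycD1), Granta-519 with a control shRNA (shCtrl), JeKo-1 with shCycD1 and JeKo-1 with shCtrl. All 4 groups were selected with puromycin, and the lines grew in different media, so any medium effect cannot be told apart from the line. No source used here gives the shRNA sequences or the time between infection and harvest. The series design calls the 3 libraries of a group biological replicates. No label ties them to separate infections, so p-values measure the spread between these libraries, which may be technical.

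Mantle cell lymphoma is a B-cell lymphoma in which a translocation typically places CCND1 under an immunoglobulin enhancer, while normal B cells rely mainly on cyclins D2 and D3. A D-type cyclin binds CDK4 or CDK6, and the active kinase phosphorylates the retinoblastoma protein RB1, which releases E2F factors and opens the way into S phase. INK4 proteins bind CDK4 and CDK6 and keep the cyclin off, and CIP/KIP proteins bind the assembled complex.

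Both lines carried the RNA of their labelled cell type. Of 7 B-cell and mantle cell lymphoma markers, 6 in Granta-519 (CD5 being below) and 7 in JeKo-1 averaged an RPKM (reads scaled by gene length and library size) of 1 or more. Their summed RPKM was 2085 to 2157 in shCycD1 and 2292 to 2395 in shCtrl of Granta-519, and 1265 to 1432 in shCycD1 and 910.6 to 1048 in shCtrl of JeKo-1; the part of this shift in the results was not tested. The 7 T and NK cell markers summed to at most 1.56 in Granta-519 and 3.95 in JeKo-1, the 7 myeloid markers to at most 52.7 and 3.33, and the 8 epithelial, fibroblast and kidney markers to at most 14.3 and 2.94. Of these other lists, CSF1R, ITGAM, KRT18 and COL1A1 in Granta-519 and CD3G, LYZ and KRT8 in JeKo-1 also averaged an RPKM of 1 or more. Across genes, r between libraries was 0.968 or more within a group and 0.962 or less between the groups of a line. The tables seem to use different gene lengths, with the basis in JeKo-1 unknown, and the log base of the JeKo-1 table is inferred. The size of a level in Granta-519 was therefore not compared with that in JeKo-1. In bulk RNA, a lower level in every cell and fewer cells at a given level cannot be told apart.

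Expression of the silenced gene itself was read first. CCND1 stood at 213, 298 and 292 RPKM in Granta-519 shCycD1, against 924.5, 1043 and 873.5 RPKM in shCtrl. The JeKo-1 values were 65.4, 64.8 and 67.4 RPKM in shCycD1, against 394.8, 330.1 and 315.3 RPKM in shCtrl. The groups did not overlap in either line, nor did they for 54% of all genes tested in Granta-519 and 69.6% in JeKo-1. The RNA left in the silenced libraries was 28.2% of the shCtrl mean in Granta-519 (22.5 to 31.5% by library) and 19.0% in JeKo-1 (18.7 to 19.4% by library). In Granta-519, shCycD1 library 1 was the lowest, and the JeKo-1 silenced libraries lay close together.

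On the log2(RPKM + 0.5) scale, the CCND1 change was -1.83 ± 0.14 (SE) in Granta-519 (limma, adjusted p = 0.000257) and -2.38 ± 0.09 in JeKo-1 (limma, adjusted p = 1.96e-06). This change ranked 102 by size among 12668 genes tested in Granta-519 and 267 among 11866 in JeKo-1. The shRNA target was thus among the larger changes but not the largest. A lower change than that of CCND1 was seen for 0.23% of genes tested in Granta-519 and 1.51% in JeKo-1. Of all genes tested, 40.6% were called in Granta-519 and 64.6% in JeKo-1 at an adjusted p under 0.05. With spike-in scaling the Granta-519 change was -1.09, and the median of all Granta-519 genes moved to 0.72, against 0.03 without it. That scaling turned the calls of all Granta-519 genes to 7449 higher and 160 lower, against 2840 higher and 2303 lower.

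**Figure D1:**
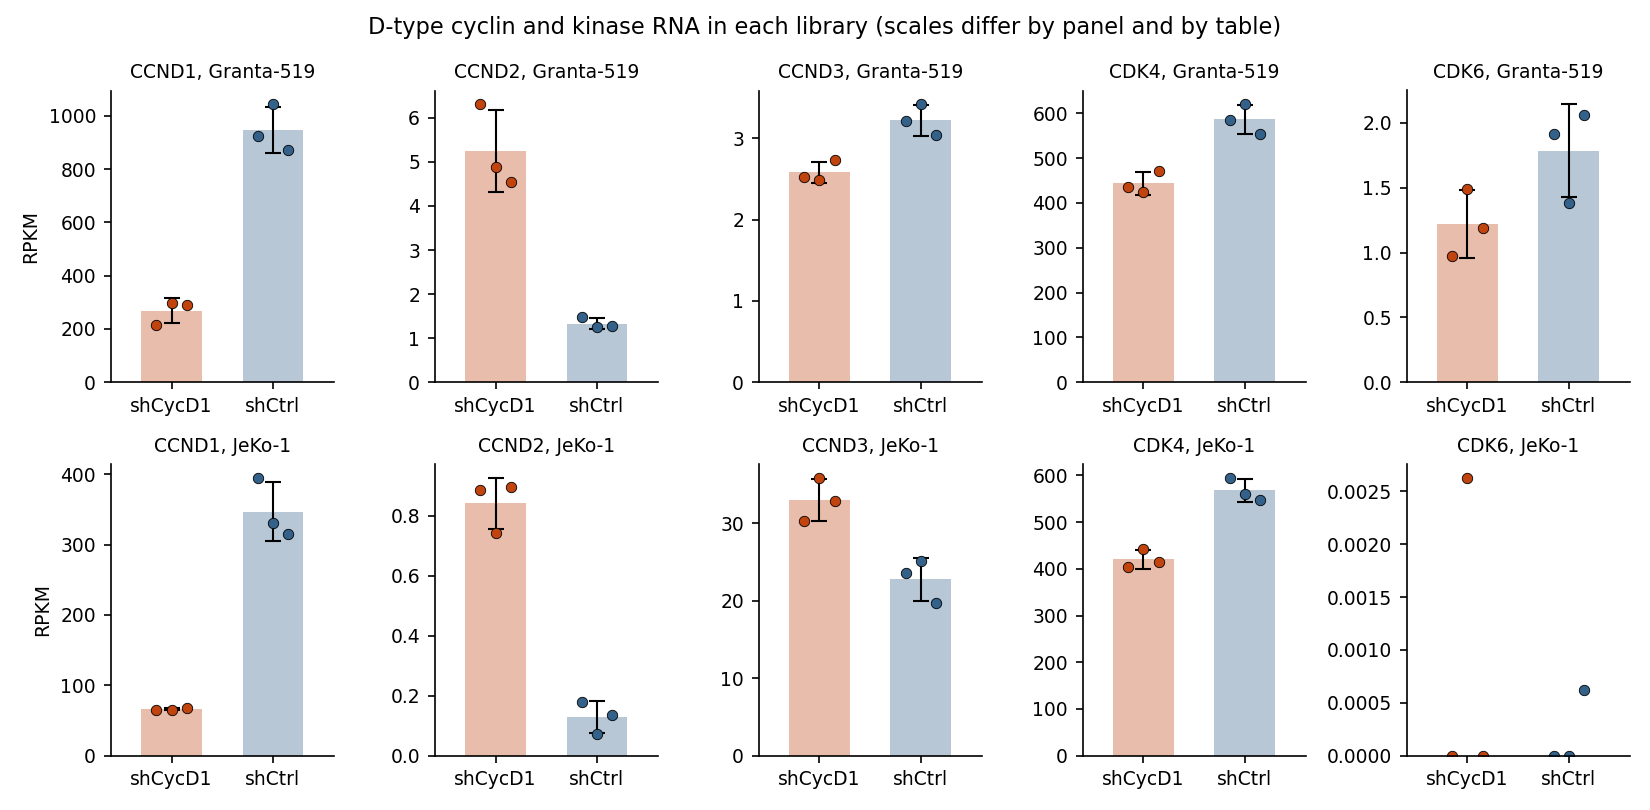
RPKM of each member in each library, Granta-519 above and JeKo-1 below; points are libraries, bars are means and error bars are SD (n = 3). CCND1 and CDK4 sit lower and CCND2 higher in shCycD1 in both lines, CCND3 moves in opposite directions, and CDK6 in JeKo-1 (points only) is listed at 0 in 4 of 6 libraries.

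CCND2, a D-type cyclin induced when B cells are activated, was higher in silenced libraries of both lines, from a low level. It stood at 6.31, 4.89 and 4.55 RPKM in Granta-519 shCycD1, against 1.47, 1.25 and 1.27 RPKM in shCtrl. The JeKo-1 values were 0.886, 0.743 and 0.894 RPKM in shCycD1, against 0.180, 0.0734 and 0.135 RPKM in shCtrl. Every silenced library was above every control library in both lines. Groups were apart in either direction for 54% of genes tested in Granta-519 and 69.6% in JeKo-1. In RPKM the shCycD1 mean was 3.94 times the shCtrl mean in Granta-519 and 6.49 times in JeKo-1.

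CCND2 rose by 1.64 ± 0.13 in Granta-519 (limma, adjusted p = 0.000268), where 22.4% of genes were called higher, and 99.2% of genes had a lower change. In JeKo-1 it lay below the minimum for testing, which required 3 of 6 libraries to reach an RPKM of 1. Its log2 difference there was 1.09 (exact two-sided permutation test over the 6 libraries, p = 0.1, the smallest p that 3 against 3 can give). Tested in JeKo-1 with no minimum, the same difference had an adjusted p of 0.000299 (limma). Whether CCND2 changed more in one line than in the other depended on the pseudocount: the difference between lines was 0.55 with 0.5 (not tested; adjusted p = 0.0286 with no minimum, limma) and -0.17 with 0.1.

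CCND3, the D-type cyclin of germinal centre B cells, moved in opposite directions in the 2 lines. It stood at 2.53, 2.49 and 2.73 RPKM in Granta-519 shCycD1, against 3.21, 3.42 and 3.04 RPKM in shCtrl. Lengths in that table were taken to follow the whole gene span, which was checked only on genes spanning under 5000 bases. The JeKo-1 values were 30.4, 35.9 and 32.8 RPKM in shCycD1, against 23.6, 25.1 and 19.7 RPKM in shCtrl. The groups did not overlap in either line, as for 54% of all genes tested in Granta-519 and 69.6% in JeKo-1.

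The log2 change of CCND3 was -0.27 ± 0.09 in Granta-519 (limma, adjusted p = 0.0431) and 0.53 ± 0.11 in JeKo-1 (limma, adjusted p = 0.00449). The change in Granta-519 minus that in JeKo-1 was -0.80 ± 0.14 (limma on the 12 libraries, adjusted p = 0.000973; 95% interval -1.11 to -0.49), where 41.9% of 10653 genes differed between lines. The Granta-519 call was lost without any 1 of the 6 libraries (-0.31 to -0.23, limma adjusted p of 0.0537 to 0.135) and with the replicate block (adjusted p = 0.103), and the value was 0.36 with spike-in scaling (adjusted p = 0.256). The JeKo-1 call was lost with a correction for GC content (0.27, limma adjusted p = 0.061) or spike-in scaling (0.40, adjusted p = 0.318), and with that scaling the difference between lines was -0.041 (adjusted p = 0.937).

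CDK4, the kinase that these cyclins activate, was lower in silenced libraries of both lines. It stood at 435, 424 and 472 RPKM in Granta-519 shCycD1, against 586, 620.1 and 554 RPKM in shCtrl. The JeKo-1 values were 404, 443 and 414 RPKM in shCycD1, against 595, 561 and 548 RPKM in shCtrl. No silenced library reached the lowest control library of its line, where groups were apart in either direction for 54% (Granta-519) and 69.6% (JeKo-1) of genes tested. The log2 change of CDK4 was -0.40 ± 0.08 in Granta-519 (limma, adjusted p = 0.00677), where 18.2% of genes were called lower, and -0.43 ± 0.07 in JeKo-1 (limma, adjusted p = 0.000996), where 27.8% were.

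The difference between lines for CDK4 was 0.03 ± 0.10 (limma, adjusted p = 0.83), with a 95% interval of -0.19 to 0.25, and turned to -0.27 with quantile normalization (adjusted p = 0.0317). With spike-in scaling it was 0.90 (limma, adjusted p = 0.0602). The JeKo-1 fall was -0.19 with quantile normalization (adjusted p = 0.051) and -0.56 with spike-in scaling (adjusted p = 0.22). In Granta-519 the value was 0.34 with spike-in scaling (adjusted p = 0.213), still below the median of all genes of 0.72 under that scaling.

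CDK6, the other kinase partner, had a low RPKM in Granta-519 and was at or near 0 in JeKo-1. Lengths in the Granta-519 table were taken to follow the whole gene span, 231653 bases for CDK6. On a scale per transcript length, described below, CDK6 stood there at 19.4 to 29.8 in shCycD1 and 27.5 to 41.1 in shCtrl. Its low RPKM in Granta-519 thus depends on the length used. In Granta-519 it stood at 0.974, 1.49 and 1.19 RPKM in shCycD1, against 1.91, 1.38 and 2.06 RPKM in shCtrl. The groups overlapped through shCycD1 library 2 and shCtrl library 2. Its log2 change was -0.41 ± 0.16 (limma, adjusted p = 0.0844, not called; unadjusted 95% interval -0.79 to -0.03). Some settings called it lower: leaving out shCtrl library 2 (-0.54, adjusted p = 0.0288), weighting the libraries (-0.54, adjusted p = 0.00323) and quantile normalization (-0.49, adjusted p = 0.0287). It stood at -0.51 with a pseudocount of 0.1 (limma, adjusted p = 0.0912) and at 0.12 with spike-in scaling (adjusted p = 0.669).

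In JeKo-1, CDK6 was listed at 0, 0.00263 and 0 RPKM in shCycD1 and at 0, 0 and 0.000622 RPKM in shCtrl. It is listed at 0 in 4 of the 6 libraries, with a mean of 0.000541 RPKM over all 6, and 18.6% of symbols in that table had a lower mean. Of the 23615 symbols, 19308 were above 0 in any library, so most symbols below CDK6 were at 0 throughout. Of 10 housekeeping genes looked up, 0 were listed at 0 in any JeKo-1 library. Depth is unknown in this table, so the level that could have been seen is not known, and no change was computed.

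The start regions of the kinase genes are shown because CDK4 fell in both lines and CDK6 was near 0 in one of them. They are RefSeq windows (GRCh38.p14) of 250 bases before to 50 after a gene start, with the E-box CACGTG, a palindrome that MYC and MAX proteins can bind, in capitals. CDK4 is at chr12:57752261-57752560 and CDK6 (the more upstream of 2 starts) at chr7:92836524-92836823, both on the minus strand and written 5′ to 3′ along the gene.
CDK4: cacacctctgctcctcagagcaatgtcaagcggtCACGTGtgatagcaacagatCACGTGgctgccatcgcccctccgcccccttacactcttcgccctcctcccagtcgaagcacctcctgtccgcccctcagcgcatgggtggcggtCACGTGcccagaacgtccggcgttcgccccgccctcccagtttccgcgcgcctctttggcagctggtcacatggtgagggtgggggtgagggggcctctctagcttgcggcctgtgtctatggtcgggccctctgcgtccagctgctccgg
CDK6: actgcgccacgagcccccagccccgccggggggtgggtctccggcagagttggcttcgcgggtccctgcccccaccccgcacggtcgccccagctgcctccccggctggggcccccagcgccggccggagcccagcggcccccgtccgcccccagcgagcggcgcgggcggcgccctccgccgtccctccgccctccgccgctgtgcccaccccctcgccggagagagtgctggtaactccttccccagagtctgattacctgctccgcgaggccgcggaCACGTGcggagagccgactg
The CDK4 window holds 3 copies of CACGTG and the CDK6 window shown holds 1. The window at the other CDK6 start (chr7:92833910-92834209) and the 3 windows listed for CCND3 hold 0. At least 1 copy is present in 7.26% of 35116 such windows, and 3 or more in 0.094%. None of the 6 windows listed for CCND3, CDK4 and CDK6 holds TTTCGCGC, TTTGGCGC, TTTCCCGC or TTTGCCGC on either strand, forms of an E2F site found in 3.31% of windows, so the motifs did not overlap. MYC RNA averaged 445 RPKM in JeKo-1 shCycD1 and 187 RPKM in shCtrl (log2 change 1.27 ± 0.25; limma, adjusted p = 0.00314), and its change in Granta-519 was 0.10 (limma, adjusted p = 0.603). With spike-in scaling MYC was called higher in both, at 0.84 in Granta-519 and 1.15 in JeKo-1 (limma, adjusted p = 0.00812 and 0.00392). No binding was measured here.

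**Figure D2:**
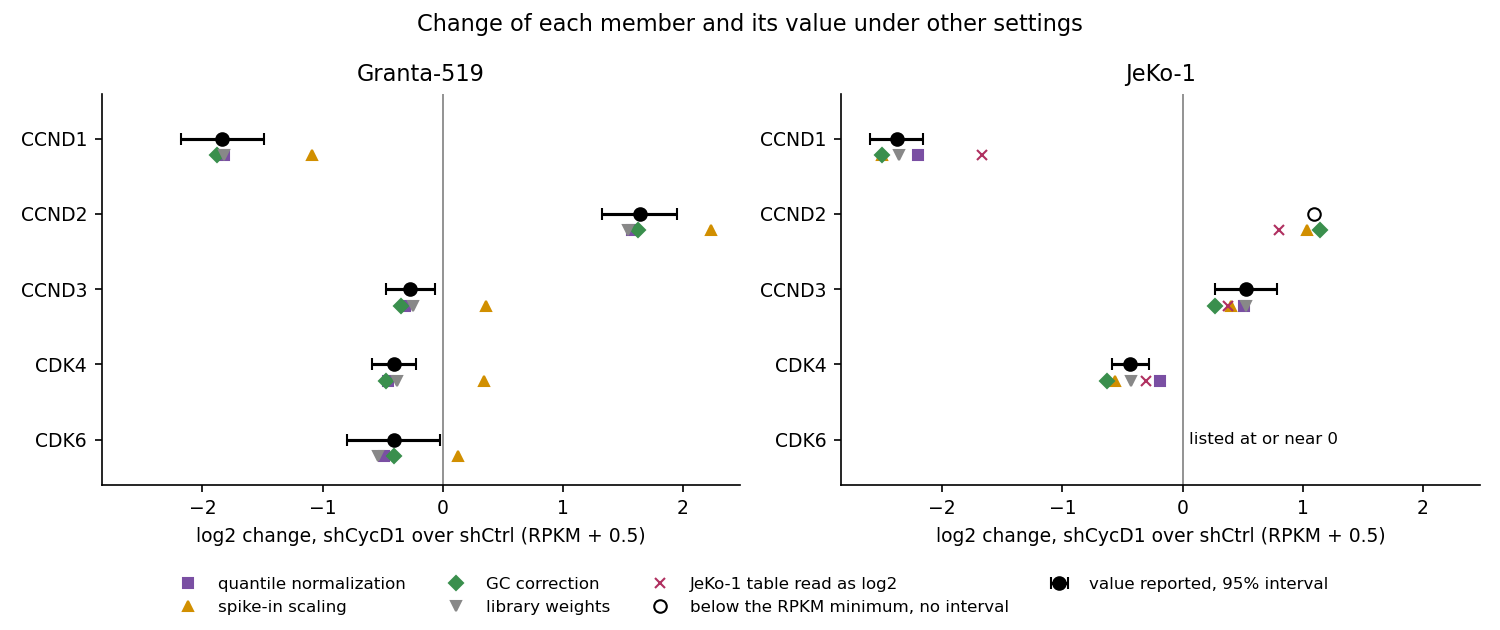
Log2 change (shCycD1 over shCtrl) of each member with its unadjusted 95% interval, and its value under 5 other settings. CCND1 stays below 0 and CCND2 above 0 under each setting drawn, while CCND3, CDK4 and CDK6 in Granta-519 cross 0 with spike-in scaling (0.36, 0.34 and 0.12).

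The makeup of D-type cyclin RNA was described on a scale per transcript length. JeKo-1 values were used as deposited, and Granta-519 values were multiplied by gene span over the longest annotated transcript (GRCh38), for example 13319 over 4307 bases for CCND1. Both steps rest on assumptions. That JeKo-1 lengths are those of transcripts was not checked, and the use of gene span in Granta-519 was checked only on genes spanning under 5000 bases. On this scale CCND1 made up 84.4% ± 2.80 of D-type cyclin RNA in Granta-519 shCycD1 and 94.8% ± 0.19 in shCtrl (SD, n = 3 each). In JeKo-1 it made up 66.1% ± 1.96 in shCycD1 and 93.8% ± 0.75 in shCtrl. CCND1 thus stayed the most abundant D-type cyclin RNA in every silenced library.

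On the scale per transcript length, CCND3 took most of the remainder. Its share was 11.3 to 14.99% in Granta-519 shCycD1 and 4.84 to 5.12% in shCtrl. In JeKo-1 it was 31.4 to 35.4% in shCycD1 and 5.64 to 7.06% in shCtrl. The share of CCND2 was 2.71% ± 0.94 in Granta-519 shCycD1 and 0.21% ± 0.03 in shCtrl, and 0.84% ± 0.10 in JeKo-1 shCycD1 and 0.035% ± 0.012 in shCtrl (SD, n = 3 each). The rise of CCND2 therefore added little RNA beside what CCND1 lost. The summed level of the 3 cyclins was 977 ± 144 in Granta-519 shCycD1 and 3090 ± 278 in shCtrl, and 99.8 ± 2.69 in JeKo-1 shCycD1 and 370 ± 43.5 in shCtrl (RPKM per transcript length). Without the change of length the CCND1 share in Granta-519 was 97.0% in shCycD1 and 99.5% in shCtrl. The order of the other cyclins in Granta-519 shCycD1 then turned, with CCND2 at 1.99% (1.52 to 2.84%) and CCND3 at 0.957% (0.817 to 1.14%). If the JeKo-1 values are taken as log2, its share there was 61.2% in shCycD1 and 87.5% in shCtrl.

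**Figure D3:**
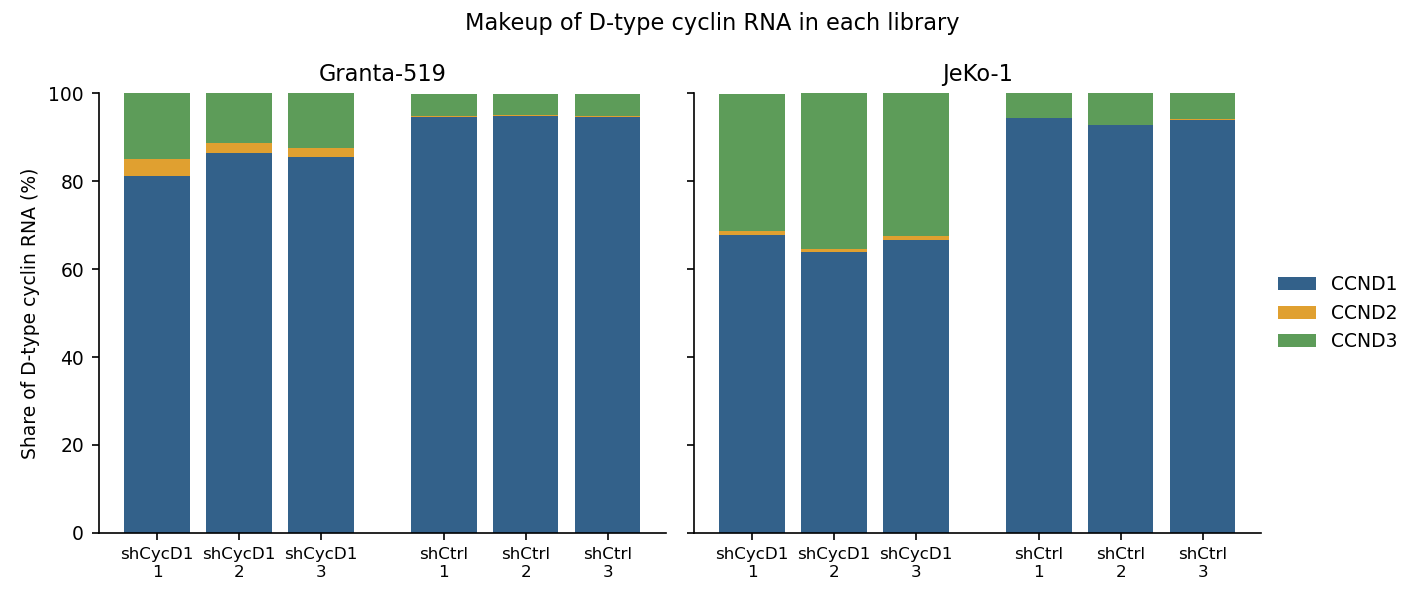
Share of each D-type cyclin in the summed RPKM of CCND1, CCND2 and CCND3 per transcript length (assumed for JeKo-1 as deposited), 1 bar per library. CCND1 takes 81.2 to 86.5% in Granta-519 shCycD1 and 63.9 to 67.7% in JeKo-1 shCycD1, against 94.65 to 94.98% and 92.9 to 94.3% in the shCtrl libraries of those lines.

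The order of the levels changed at the top in Granta-519. In its shCycD1 libraries CDK4 (937 to 1042) stood above CCND1 (659 to 922), and in its shCtrl libraries CCND1 (2701 to 3227) stood above CDK4 (1223 to 1369), in RPKM per transcript length. Below them came CCND3 (120 to 131 in shCycD1, 146 to 164 in shCtrl). CDK6 (19.4 to 29.8) and CCND2 (22.2 to 30.8) overlapped in shCycD1, while in shCtrl CDK6 (27.5 to 41.1) lay above CCND2 (6.12 to 7.17). The order below CDK4 and CCND1 in Granta-519 depended on the length scale: as deposited, CCND2 (4.55 to 6.31 RPKM) lay above CCND3 (2.49 to 2.73) and CDK6 (0.974 to 1.49) in shCycD1, and in shCtrl CDK6 (1.38 to 2.06) overlapped CCND2 (1.25 to 1.47). In JeKo-1 the order as deposited was CDK4, CCND1, CCND3, CCND2 and CDK6 in both groups, with no overlap between neighbours. The summed cyclin level divided by the summed kinase level was 0.97 ± 0.14 in Granta-519 shCycD1 and 2.32 ± 0.10 in shCtrl, and 0.24 ± 0.01 in JeKo-1 shCycD1 and 0.65 ± 0.05 in shCtrl (SD, n = 3 each). These are ratios of RNA and say nothing of protein.

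Ratios of members within a library do not move with the scaling between libraries. The log2 ratio of CCND3 to CCND1 was 1.52 higher in shCycD1 than in shCtrl of Granta-519, and 2.93 higher in JeKo-1. That of CDK4 to CCND1 was 1.43 higher in Granta-519 and 1.96 in JeKo-1. For CCND2 to CCND3 the increase was 2.29 in Granta-519 against 2.25 in JeKo-1. For each of these ratios the groups were apart, by at least 1.17 (CDK4 to CCND1 in Granta-519). The CCND2 to CCND3 value in JeKo-1 rests on CCND2 at 0.0734 to 0.180 RPKM in shCtrl, with no pseudocount. The SD of that log2 ratio in JeKo-1 shCtrl was 0.76. All JeKo-1 ratios also rest on the inferred natural log. The ratio of CDK6 to CDK4 in Granta-519 differed by -0.15, within the spread of its groups (SD of 0.34 in shCycD1 and 0.39 in shCtrl).

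Genes with the most similar pattern were named for each member by Pearson r across the 6 libraries of a line, taking the smaller r of the 2 lines where both were tested, among 10652 genes. MYBL2, PKMYT1 and RRM2 were closest to CCND1 (0.999, 0.998 and 0.998). CRIP3, MILR1 and EPS15L1 were closest to CCND3 (0.951, 0.944 and 0.942), and PA2G4P4, NUDC and CCT7 to CDK4 (0.992, 0.99 and 0.989). In Granta-519 alone, among 12667 genes, SLC6A4, SLC31A2 and ORAI3 were closest to CCND2 (0.999 each), and FASN, HDAC7 and WHSC1L1 to CDK6 (0.996, 0.996 and 0.995). The points of each r share the contrast of 2 groups, so where the groups were apart a high r mostly restates the change between them. The CDK6 groups overlapped in Granta-519, so its r also follows differences between libraries of a group.

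Around these 5 genes, 43 genes of the same pathway were listed by role. In Granta-519, 7 of 37 tested were higher and 15 lower in shCycD1, with a median log2 change of -0.08 against 0.03 over all genes; of all genes, 22.4% were called higher and 18.2% lower. In JeKo-1, 17 of 40 were higher and 19 lower, with a median of -0.12 against 0.09; 36.7% of all JeKo-1 genes were called higher and 27.8% lower. With spike-in scaling the counts were 18 higher and 3 lower in Granta-519, and JeKo-1 had 7 higher and 15 lower.

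Inhibitors of the kinases went both ways. CDKN1C, a CIP/KIP inhibitor, was called higher in Granta-519 (1.13) and JeKo-1 (1.68; limma, adjusted p = 0.000755 and 0.000389). CDKN1A, of the same family, was called lower in both (-0.52 and -1.79; limma, adjusted p = 0.00894 and 6.07e-05). CDKN1B, a further CIP/KIP gene named after its values were seen, was called higher in JeKo-1 (0.61, limma adjusted p = 0.0063). In Granta-519 its change was -0.001 (limma, adjusted p = 0.996), and its values under other settings are not given. The INK4 genes CDKN2C (-0.55 and -0.26) and CDKN2D (-1.06 and -0.71) were also called lower in both lines. The JeKo-1 call of CDKN2C was lost with quantile normalization (-0.19, limma adjusted p = 0.0935) and without any 1 library except shCycD1 3 (-0.28 to -0.18, adjusted p of 0.0609 to 0.114). CDKN1A and CDKN2C stood at 0.23 and 0.20 in Granta-519 with spike-in scaling. The INK4 gene CDKN2A, singled out after its values were seen, averaged 0.00587 RPKM in shCycD1 and 0.00853 RPKM in shCtrl of Granta-519, below the minimum for testing. In JeKo-1 it averaged 63.5 RPKM in shCycD1 and 49.1 RPKM in shCtrl (log2 change 0.38; limma, adjusted p = 0.0635), and its change was -0.068 with the GC correction.

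The CDK-activating kinase phosphorylates CDK4 and CDK6 on their activation loop. Its assembly factor MNAT1 was called lower in Granta-519 (-0.64) and JeKo-1 (-0.79; limma, adjusted p = 0.00122 and 0.000227). Its catalytic subunit CDK7 was higher by 0.39 in Granta-519 (adjusted p = 0.033) and fell by 0.31 in JeKo-1 (adjusted p = 0.0438, limma). The Granta-519 call was lost without shCycD1 1 or 3 or shCtrl 1 or 3 (0.31 to 0.41), and the JeKo-1 call without shCycD1 1 or 3 or shCtrl 2 or 3 (-0.35 to -0.21). In Granta-519 the call was also lost with no minimum (limma, adjusted p = 0.0537) and with quantile normalization (0.36, adjusted p = 0.0613). Of the alternatives, 8 of 15 called CDK7 in Granta-519 and 9 of 16 in JeKo-1. CCNH, its cyclin, had changes of -0.22 in Granta-519 (adjusted p = 0.152) and -0.42 in JeKo-1 (limma, adjusted p = 0.00225). CDC37, the chaperone partner that delivers CDK4 to HSP90, had a change of 0.13 in Granta-519, not called, against 0.41 in JeKo-1 (limma, adjusted p = 0.00209). HSP90AB1 had a change of -0.12 in Granta-519, not called, against -0.38 in JeKo-1 (limma, adjusted p = 0.0011). With the GC correction the JeKo-1 calls of CCNH (-0.022), CDC37 (0.022) and CDK7 (-0.068) were lost (limma, adjusted p = 0.758, 0.728 and 0.509), and MNAT1 stood at -0.43. With spike-in scaling CDC37 (0.88) and HSP90AB1 (0.63) were called higher in Granta-519 (limma, adjusted p = 0.00426 and 0.0151).

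Calls among targets of the kinases and the E2F factors went both ways. In Granta-519, 1 of 10 was higher and 4 lower, where 22.4% of all genes were called higher and 18.2% lower. In JeKo-1, 4 of 10 were higher and 5 lower, beside 36.7% and 27.8% of all genes. RB1, singled out after its values were seen, had a change of -0.08 in Granta-519 (adjusted p = 0.386) and -0.72 in JeKo-1 (limma, adjusted p = 0.00414; -0.37 with the GC correction). The pocket protein gene RBL1 (-1.18 in Granta-519 and -2.48 in JeKo-1), E2F1 (-1.42 and -1.95), E2F2 (-1.48 and -3.22) and the E2F partner TFDP1 (-1.17 and -1.08) were called lower in both lines by limma. TFDP2 was called higher in both (0.34 and 1.11), though in Granta-519 not without shCycD1 3 (0.33) or shCtrl 1 (0.32). RBL2 (0.78), E2F4 (0.71) and E2F5 (0.93), a pocket protein gene and a pair of E2F genes named after their values were seen, were called higher in JeKo-1 (limma, adjusted p = 0.000405, 0.000376 and 0.00013). In Granta-519 they stood at 0.10, 0.04 and -0.06, not called. With spike-in scaling RBL2 (0.79) and E2F4 (0.78) were called in Granta-519 and lost their JeKo-1 calls (0.66 and 0.58), and with the GC correction E2F4 in JeKo-1 stood at 0.34. All 5 downstream genes were called lower in both lines, where 18.2% of all Granta-519 genes and 27.8% of all JeKo-1 genes were. They were CCNA2, the cyclin of S phase and G2 (-1.46 in Granta-519 and -3.69 in JeKo-1), the phosphatase gene CDC25A (-1.10 and -2.78), CDK2 (-1.35 and -1.92), and its G1 cyclins CCNE2 (-0.85 and -2.01) and CCNE1 (-0.89 and -0.66). With spike-in scaling CDC25A, CCNE1 and CCNE2 in Granta-519 stood at -0.41, -0.18 and -0.13 and lost their calls, as did CDK2 (-0.61, limma adjusted p = 0.0551), RBL1 (-0.56) and TFDP1 (-0.43).

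Genes of D-type cyclin turnover were mixed. Of 7 tested, 2 were called higher and 2 lower in Granta-519, and 4 higher and 2 lower in JeKo-1. For regulators of CCND transcription, 2 of 5 were called higher in Granta-519, 6 of 7 in JeKo-1, and 0 lower in either. Of all genes, 22.4% were called higher and 18.2% lower in Granta-519, against 36.7% and 27.8% in JeKo-1. FBXO4, an F-box protein reported to bind cyclin D1, was called lower in Granta-519 (-0.71) and JeKo-1 (-0.99), and so was SKP2 (-0.82 and -0.66). AMBRA1 and GSK3A, named after their values were seen, were called higher in JeKo-1 (0.40 each, limma adjusted p = 0.0048 and 0.00404). In Granta-519 they stood at 0.10 and 0.005, not called, and their values under other settings are not given. FBXO31 (0.45 and 0.84) and FBXW8 (0.40 and 0.64) were called higher in both. The Granta-519 call of FBXO31 was lost with no minimum (limma, adjusted p = 0.0567), with the replicate block (adjusted p = 0.0603) and without shCtrl 1 or any 1 shCycD1 library (0.43 to 0.49, adjusted p of 0.0625 to 0.0898), and that of FBXW8 with the block (adjusted p = 0.051). With the GC correction FBXO31 in JeKo-1 stood at 0.49 and SKP2 at -0.44. With spike-in scaling in Granta-519, FBXO4 stood at -0.022, SKP2 at -0.12, MNAT1 at -0.044 and CDKN2D at -0.34, none of them called. Among transcription factors, STAT5A, which activates CCND2 in lymphocytes, was called higher in both (0.79 and 1.10; limma, adjusted p = 0.00246 and 0.00186), as was STAT3 (0.46 and 0.76). BCL6, a repressor of CCND2, averaged 0.493 RPKM in shCycD1 and 0.324 RPKM in shCtrl of Granta-519, below the minimum, and rose by 1.68 in JeKo-1 (limma, adjusted p = 3.65e-05). FOXO3 rose by 0.54 and STAT5B by 0.50 in JeKo-1. With spike-in scaling the JeKo-1 calls of CDKN2C, CDK7, CCNH, CDC37, HSP90AB1, FBXW8, FOXO3, STAT3 and STAT5B were lost. FOXO1 was at 0.22 in Granta-519 and 0.02 in JeKo-1 (limma, adjusted p = 0.202 and 0.877), and was called in Granta-519 with spike-in scaling (0.75, adjusted p = 0.0106).

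**Figure D4:**
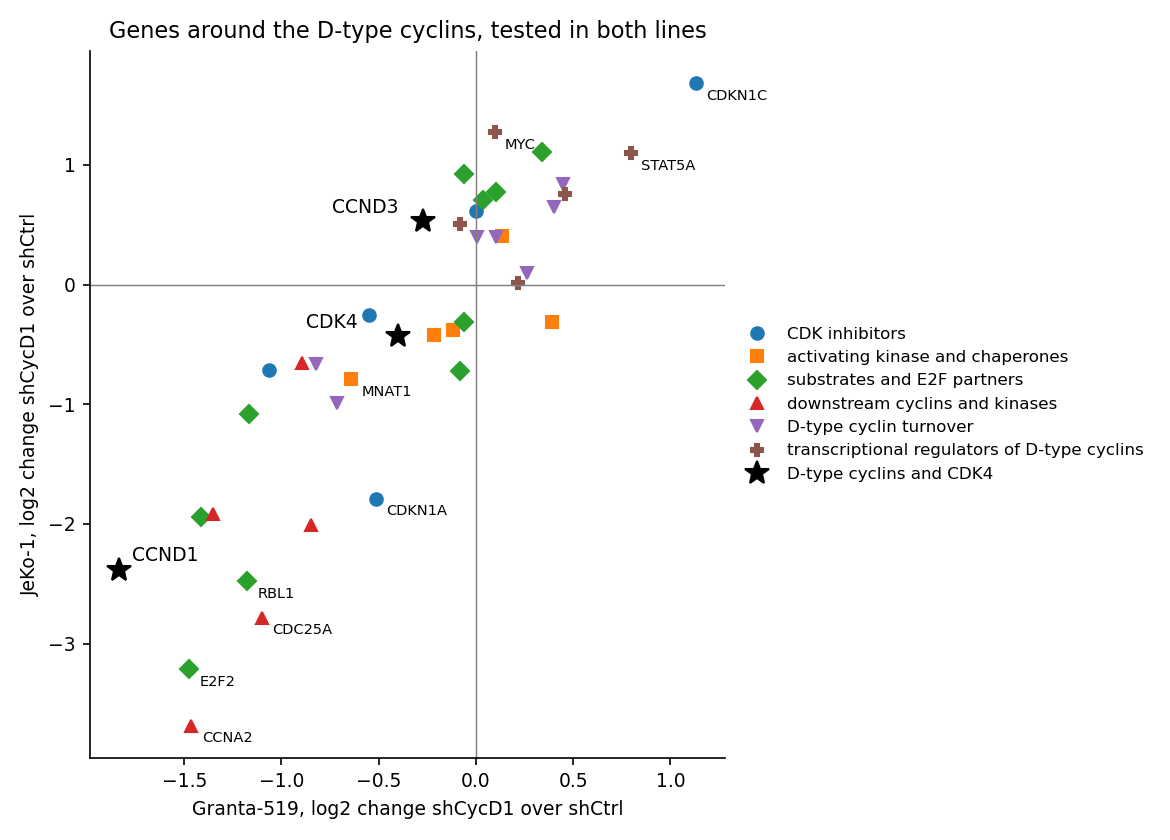
Log2 change (shCycD1 over shCtrl) in JeKo-1 against that in Granta-519 for the 37 pathway genes tested in both lines, by role, with CCND1, CCND3 and CDK4 as stars. The 5 downstream genes lie below 0 in both lines, CDKN1C lies above 0 in both, and CCND3 lies left of 0 and above it.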

How the data were processed

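The authors deposited 1 table of RPKM per line; the deposited values were taken to be ln(RPKM + 1), a natural log. Per the submitters' processing notes, FastQC, TopHat2 2.1.1, limma 3.9 and the builds GRCh37 and hg19 were used; no source used here gives the counter, the annotation or the log transform. In Granta-519, low values times gene span were whole multiples of 1 step (tolerance 0.1) in 81.0 to 84.1% of cases with the natural log, against 46.9 to 54.3% with base 2. Only genes with a span under 5000 bases entered that check, so the span basis of longer genes is inferred. Taking 1 step as 1 read, CCND2, with the fewest, had 940 or more per library; the step is known only up to a whole multiple. No base gave more than 31.2% in JeKo-1, where the natural log is inferred from spike-in spread (SD ratio to Granta-519 of 0.96, against 0.70 with base 2). Depth and the gene lengths used are unknown there. The row with the highest mean was kept per symbol. Within each line, groups were compared with limma 3.58.1 (R 4.3.3, empirical Bayes with trend) on log2(RPKM + 0.5), which understates changes of low genes, for genes that reached an RPKM of 1 in 3 of 6 libraries, with Benjamini-Hochberg adjustment over all genes tested. A joint fit of 12 libraries tested differences between lines. The fit was tested on simulated data. Alternatives were other pseudocounts and minimums, quantile, spike-in and GC corrections, library weights, the replicate block, single libraries left out and JeKo-1 read as log2. Pathway genes were named if called in both lines, if their role held at most 3 calls in a line, or if they had the largest change of their role. Members and lists were chosen with earlier results of these data known.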

Additional observations from a re-analysis of the deposited data

Results flagged for a closer look

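Some changes differed between the lines by the joint limma fit, in which 41.9% of genes did so; differences are the log2 change in Granta-519 minus that in JeKo-1. For CCND1 the difference was 0.55 ± 0.18 (SE, limma adjusted p = 0.0306), with changes of -1.83 and -2.38. Under quantile normalization it missed the threshold (0.38, adjusted p = 0.0886), and the sign turned when JeKo-1 values were taken as log2 (-0.16, limma adjusted p = 0.486). The call did not survive leaving out Granta-519 shCycD1 2 (0.46) or 3 (0.48), shCtrl 1 (0.53) or 3 (0.49), JeKo-1 shCycD1 1 (0.54) or 2 (0.53), or shCtrl 1 (0.45), with limma adjusted p of 0.0568 to 0.0746 without these libraries. With spike-in scaling it was 1.42 (limma adjusted p = 0.00487). For CCND3 it was -0.80, with a fall in Granta-519 and a rise in JeKo-1.

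Among named pathway genes, the difference was above 0 for CDKN1A (1.27), CDK7 (0.70), HSP90AB1 (0.26), RB1 (0.64), RBL1 (1.30), E2F2 (1.74), CCNE2 (1.16), CCNA2 (2.22), CDK2 (0.57) and CDC25A (1.68). It was below 0 for RBL2 (-0.67), E2F4 (-0.67), E2F5 (-0.99), TFDP2 (-0.77), MYC (-1.18) and STAT5B (-0.59). With spike-in scaling MYC stood at 0.84 in Granta-519 and 1.15 in JeKo-1; the difference was not tested under that scaling. The limma adjusted p of these 16 genes ranged from 5.25e-07 for CCNA2 to 0.0306 for HSP90AB1. Outside this set, CDKN1B (-0.61) and GSK3A (-0.40) also differed between the lines (limma, adjusted p = 0.0345 and 0.00797). Values of these pathway gene differences under other settings, such as JeKo-1 read as log2, GC correction or quantile normalization, are not given. The CDK2 change, for example, ranged over other settings from -2.065 to -1.371 in JeKo-1 and from -1.445 to -0.61 in Granta-519. Groups of 3 are too small to look for single outlying libraries.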

How the results depend on the processing

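Over the alternatives run, CCND1 was called lower in both lines (-1.92 to -1.09 in Granta-519 and -2.50 to -1.67 in JeKo-1), and CCND2 was called higher in Granta-519 wherever it was tested (1.41 to 2.23). The cause of the following changes was not tested. With no minimum, the CCND3 call in Granta-519 was lost (-0.27, limma adjusted p = 0.0636, over more genes), and CCND2 was called in JeKo-1 (1.09) and between lines (0.55, or -0.17 with a pseudocount of 0.1). With quantile normalization CCND3 in Granta-519 was -0.31 (adjusted p = 0.0504), CDK6 was called (-0.49), CDK4 in JeKo-1 lost its call (-0.19) and the differences between lines were 0.38 for CCND1 and -0.27 for CDK4. Spike-in scaling gave CCND3 0.36, CDK4 0.34, CDK6 0.12, CDKN1A 0.23, CDKN2C 0.20, CCNH 0.50, HSP90AB1 0.63, RB1 0.63, STAT5B 0.60 and E2F5 0.65 in Granta-519, and called CDC37 (0.88), RBL2 (0.79), E2F4 (0.78), MYC (0.84) and FOXO1 (0.75) there. In JeKo-1 it gave CCND3 0.40, CDK4 -0.56 and FOXO1 -0.10, and the CCND3 difference was -0.041. Calls with it were 7449 higher and 160 lower in Granta-519 and 1821 higher and 1898 lower in JeKo-1, against 4357 and 3303 without it; pathway genes were 18 higher and 3 lower in Granta-519 and 7 higher in JeKo-1. The GC correction gave CCND3 0.27, CDKN2A -0.068, CCNH -0.022, CDC37 0.022 and CDK7 -0.068 in JeKo-1, none of them called, moved RB1 to -0.37, MNAT1 to -0.43, E2F4 to 0.34, FBXO31 to 0.49, SKP2 to -0.44, CDKN2C to -0.58 and CDKN2D to -1.15 there, and put E2F4 in Granta-519 at -0.027. Library weights called CDK6 (-0.54), gave 3579 lower genes in Granta-519 and put MYC there at -0.094, E2F4 at -0.028 and E2F5 at 0.0073. A mean RPKM of 5 or more, which tests fewer genes, left 2874 higher in JeKo-1 and no value for CCND2, CCND3 and CDK6 in Granta-519. FOXO1 in JeKo-1 was -0.061 with quantile normalization. With JeKo-1 read as log2, the differences were -0.16 for CCND1 and -0.10 for CDK4, and the CCND1 share in JeKo-1, an alternative chosen after seeing the data, was 61.2% in shCycD1 and 87.5% in shCtrl. As deposited, the Granta-519 share was 97.0% and 99.5%.

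Leaving out single libraries gave -0.31 to -0.23 for CCND3 and -0.54 to -0.30 for CDK6 in Granta-519, 0.45 to 0.70 for the CCND1 difference and -0.015 to 0.071 for the CDK4 difference. It left 4 to 7 pathway genes higher and 1700 to 2712 genes higher in Granta-519, the fewest without shCycD1 1. MYC stood at -0.031 without shCtrl 2 (highest 0.18, without shCtrl 1) and STAT5B at 0.025 without shCycD1 1 and E2F5 at 0.038 without shCtrl 3 (lowest -0.13, without shCtrl 2) in Granta-519, and FOXO1 in JeKo-1 at -0.0038, -0.014 and -0.019 without shCtrl 1, shCtrl 3 or shCycD1 3 (highest 0.066, without shCtrl 2). For deviations of libraries with the same replicate number, r ranged from -0.12 to 0.03 in Granta-519, while JeKo-1 gave 0.09 to 0.19, all above 0. Of 12 libraries, 6 correlated best with their own number. Each was set against the 3 libraries of the other group, 1 of which shares its number, so some such matches arise at random. This is at most a hint from the data and not the design. Not every r passed 0.1, so the numbers were not taken to pair libraries. With the replicate block CCND3 in Granta-519 was -0.27 (limma adjusted p = 0.103), 4 pathway genes were higher there, and 2285 genes were higher and 1903 lower in Granta-519, against 4901 and 3806 in JeKo-1. No alternative was run for CDK6 in JeKo-1, whose values were at or near 0. Unknown depth limits CCND2 and CDK6 in JeKo-1.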
